A study of Caenorhabditis elegans with 12 samples.

Results

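The comparison described here set wrn-1(gk99) mutant Caenorhabditis elegans grown with vitamin C against untreated N2 worms, the wild type strain. It asked which genes differed from wild type while the mutant was under vitamin C. Its members were all genes with a mean normalized read count of at least 10 over the 3 wrn-1(gk99) vitC libraries and the 3 N2 libraries. That rule kept 14304 of the 45327 genes listed, out of 20333 with a read in any of the 6 libraries. At the edge of the rule, C18A11.4 had a mean of 10.01 normalized counts and was kept, and ceh-76 had a mean of 9.993 and was left out. The wrn-1(gk99) vitC worms carried the gk99 deletion in wrn-1, after repeated outcrossing to N2, and had 10 mM sodium L-ascorbate in their plates from the first larval stage on. The N2 worms carried no mutation and had plain plates. Both were whole worms grown at 25°C and collected at the fourth larval stage (L4), each group as 3 biological replicates. The mutant develops more slowly, so worms were collected by vulva and gonad shape and not by age. The whole series held 12 libraries in 4 groups, and the other groups, untreated wrn-1(gk99) and N2 vitC, appear below only as values set beside the 6. Strain and vitamin C differed together in this comparison and cannot be told apart within it.

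WRN-1 is the worm counterpart of the human WRN protein, a RecQ DNA helicase whose loss causes Werner syndrome, a disease of premature ageing. Vitamin C is an electron donor and a cofactor of dioxygenases such as the prolyl hydroxylases that modify collagen. At L4 the epidermis of the worm prepares the adult cuticle, an extracellular coat made mostly of small collagens, and the gonad starts to make sperm and then oocytes. Many cuticle, moulting and hedgehog-related genes are switched on in waves within each larval stage, and the intestine carries much of the fat, detoxification and defence gene expression.

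The wrn-1(gk99) vitC libraries held between 13446257 and 26467255 reads on genes, and the N2 libraries between 15952129 and 20591287. Pairs of replicates had a Pearson correlation of log2 normalized counts across genes of 0.9924 to 0.9954 for wrn-1(gk99) vitC and of 0.9923 to 0.9926 for N2. Sampling alone gives a mean chi-square per gene of about 1 between replicates. It was 20.5 and 12.9 between wrn-1(gk99) vitC replicate 1 and replicates 2 and 3. Between replicates 2 and 3 it was 6.07, and in N2 it was 1.7 to 6.56. This measure grows with depth where replicates differ by more than sampling, and replicate 1 of the treated mutant was the deepest of the 6 libraries. That replicate stood apart by chi-square, but its correlation with replicate 3, at 0.9954, was the highest of any pair. Without replicate 1 of the treated mutant, 204 genes were called higher and 432 lower, where all 6 libraries gave 191 and 410. The 20 genes with the most reads took 10.3% to 10.8% of the total in wrn-1(gk99) vitC and 16.7% to 17.3% in N2. Reads on ribosomal RNA genes took 0.359% to 0.903% of the total in wrn-1(gk99) vitC and 0.15% to 0.158% in N2. One library outside the comparison went against its label. N2 vitC replicate 3 differed from wrn-1(gk99) vitC replicate 3 by a mean chi-square of 2.29 per gene, and from the other N2 vitC libraries by 97.6 and 91.6. For that reason N2 vitC values are given library by library, with no mean.

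The targeted gene, wrn-1, had 835, 648 and 671 normalized counts in the wrn-1(gk99) vitC libraries and 516, 499 and 502 in the N2 libraries. All 3 mutant libraries were above all 3 N2 libraries, by 0.50 ± 0.09 on the log2 scale (SE; limma, adjusted p = 7.59e-04). The gk99 deletion removes a small part of the gene, and the table holds 1 count for the whole gene, so this value does not check the deletion. The tubulin gene tba-1, used in the study as an unchanged control, had 12328, 11921 and 11722 normalized counts in wrn-1(gk99) vitC and 12606, 12258 and 12927 in N2, and its groups overlapped (log2 difference -0.07 ± 0.06, adjusted p = 0.318).

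Between wrn-1(gk99) vitC and N2, 601 of 14304 genes were called, of which 191 were higher and 410 were lower in wrn-1(gk99) vitC. The count does not say which of them also differed without vitamin C. A gene was called where limma's Benjamini-Hochberg adjusted p was under 0.01, the ratio of group means was at least 2 or at most 0.5, and the mean exceeded the study's minimum of reads in at least one group, which left no called gene with a larger group mean under 146.7 normalized counts. The called genes made up 4.20% of those tested, 1.34% higher and 2.87% lower, and these shares are the background for the counts in each gene family below. Every gene that passed the ratio and the minimum mean also passed the test, with adjusted p of at most 9.83e-04, so size and level decided the calls, and 91 of the called genes had means that differed by less than 2.1-fold. In all 601 called genes the 3 libraries of one group lay apart from the 3 of the other, as they did in 9132 of the 14304 genes tested. Most differences were moderate, with 31 genes called higher and 112 called lower by at least 3-fold, and 2 and 9 by at least 8-fold. Without regard to the size of the difference, 2993 genes (20.9%) were higher and 3255 (22.8%) were lower at an adjusted p under 0.01. The 410 genes called lower took 6.37% to 6.51% of all normalized counts in wrn-1(gk99) vitC and 15.2% to 15.7% in N2. With libraries scaled to equal totals the log2 fold changes of all genes moved up by 0.18 at the median, and the calls became 339 higher and 266 lower.

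**Figure D1:**
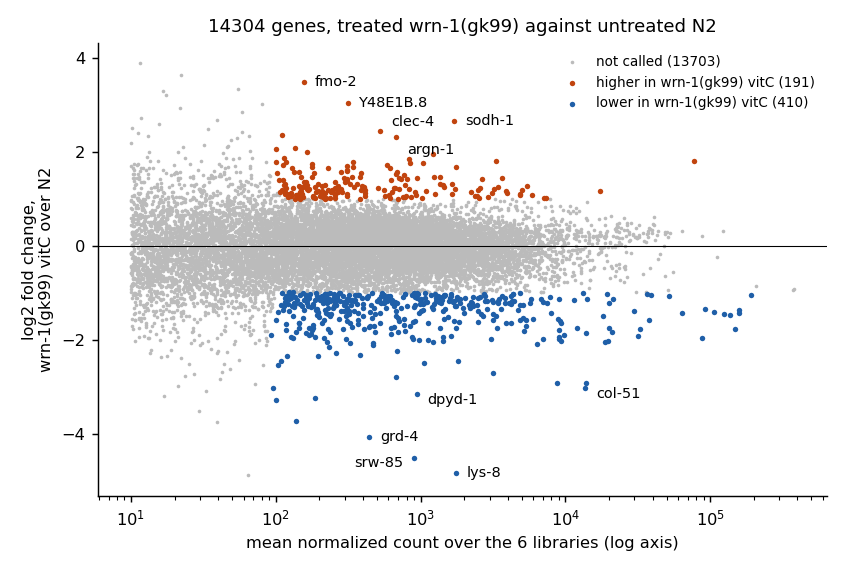
Each point is 1 of the 14304 genes, with its mean normalized count over the 6 libraries on a log axis and the log2 fold change of wrn-1(gk99) vitC over N2 on the vertical axis. The 191 genes called higher are orange-red, the 410 called lower are blue, and the rest are grey. Among called genes, the largest falls (lys-8, srw-85, grd-4) exceed the largest rises (fmo-2, Y48E1B.8) in size.

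The called genes with the smallest ratios came from several families. The lowest of them was lys-8, which encodes a lysozyme of the intestine used against bacteria. It had 111, 129 and 113.6 normalized counts in wrn-1(gk99) vitC and 3381, 3339 and 3494 in N2, with no overlap, and fell by 4.84 ± 0.07 on the log2 scale (adjusted p = 8.27e-12). The untreated mutant was also low for lys-8, at 152, 163 and 151. The study measured lys-8 and sodh-1 by RT-PCR too, and the primers are shown because they identify the transcripts behind the smallest ratio and one of the largest ratios among called genes. Each line is read from 5′ to 3′, lys-8 lies on chromosome II and sodh-1 on chromosome V.
lys-8 forward: ctggcagtactttgccattcgg
lys-8 reverse: gctgggttgtatgcacggaca
sodh-1 forward: acaaagctggagtcaagctca
sodh-1 reverse: atattgaatagcaagagatcc

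Next came srw-85, a predicted G protein-coupled chemoreceptor, with 69.97, 67.8 and 87.3 normalized counts in wrn-1(gk99) vitC against 1734, 1646 and 1819.8 in N2. It fell by 4.52 on the log2 scale (adjusted p = 1.26e-10), and it was lower still in the untreated mutant, at 52.5, 45.3 and 41.8. The groundhog gene grd-4 had 54.3, 44.3 and 47.5 in wrn-1(gk99) vitC and 809, 834 and 854 in N2 (log2 fold change -4.07, adjusted p = 2.20e-10). Dihydropyrimidine dehydrogenase, dpyd-1, starts the breakdown of uracil and thymine. It had 202, 181 and 181 normalized counts in wrn-1(gk99) vitC, against 344, 367 and 392 in the untreated mutant and 1768, 1679 and 1648 in N2. The other 6 of the 10 smallest ratios were the C-type lectin gene clec-101 (log2 fold change -3.74), the collagens col-51 (-3.04) and col-72 (-2.93), and Y54G2A.57 (-3.30), C33B4.5 (-3.25) and F20E11.17 (-3.03).

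Among the genes called higher, the largest ratio was that of fmo-2, a flavin-containing monooxygenase that is induced by hypoxia and fasting in worms. It had 275, 303 and 285 normalized counts in wrn-1(gk99) vitC and 21.5, 38.5 and 18.1 in N2, a log2 fold change of 3.49 ± 0.22 (adjusted p = 2.65e-07). The untreated mutant had 192, 186 and 202, so the treated libraries were the highest of the mutant libraries. The alcohol dehydrogenase gene sodh-1 had 2876, 3135 and 2833 in wrn-1(gk99) vitC against 461, 431 and 504 in N2 (log2 fold change 2.66, adjusted p = 5.51e-10). Here the order among mutant libraries was the other way round, with 5038, 4899.5 and 5126 in the untreated mutant. The C-type lectin gene clec-4 had 887, 923 and 866 in wrn-1(gk99) vitC and 150.5, 169.7 and 172 in N2 (log2 fold change 2.44). Arginase, argn-1, the enzyme that splits arginine into ornithine and urea, had 1043, 1091 and 1245 in wrn-1(gk99) vitC and 209.6, 206 and 271 in N2 (ratio of group means 4.93). The other 6 of the 10 largest ratios were Y48E1B.8 (log2 fold change 3.03), C40H1.7 (2.36), the predicted acyltransferase gene oac-32 (2.08), clec-75 (2.06), nspc-14 (1.98) and C50F7.5 (1.96).

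**Figure D2:**
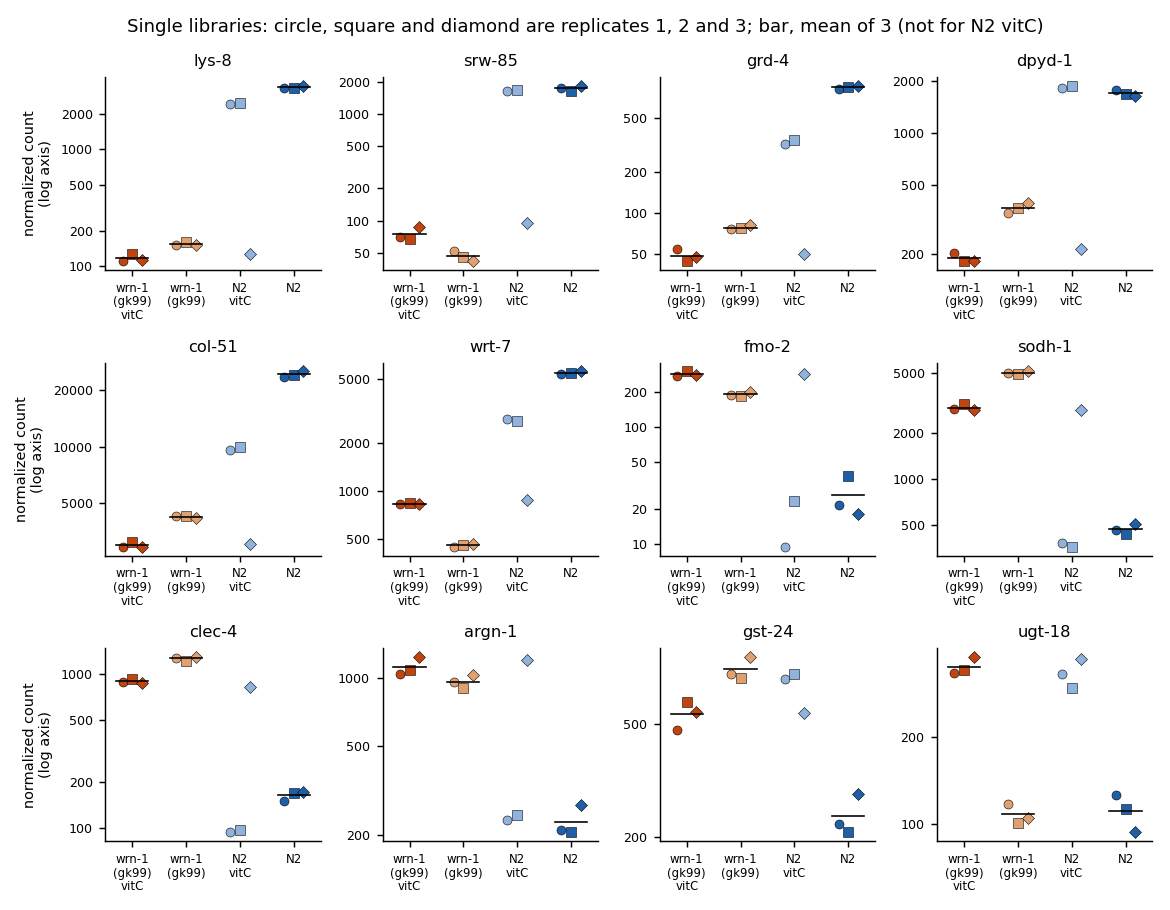
Normalized counts of 12 genes in each of the 12 libraries, on a log axis, with wrn-1(gk99) vitC at the left of each panel, then untreated wrn-1(gk99), N2 vitC and N2. Circles, squares and diamonds are replicates 1, 2 and 3, and the bar is the mean of 3, left out for N2 vitC. The wrn-1(gk99) vitC and N2 libraries do not overlap in any panel, N2 vitC replicate 3 lies with the treated mutant, and gst-24 and ugt-18 show the N2 vitC libraries above N2.

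The cuticle collagens held the most called genes of any family fixed for the report. Of 149 tested, 33 were called lower in wrn-1(gk99) vitC and 5 higher, against 2.87% and 1.34% of all genes, yet the median over the family was a log2 fold change of 0.12, beside 0.00 over all genes tested. At an adjusted p under 0.01 and any size, 59 collagens were lower and 59 higher. With libraries scaled to equal totals, 27 were called lower and 10 higher. Calls at high and low counts were split at a level set after the values were seen, on counts that are not scaled to gene length. Of the 27 with a mean above 10000 normalized counts over the 6 libraries, 16 were called lower and none higher, and their median log2 fold change was -1.41. Of the other collagens tested, 17 were called lower and 5 higher, with a median of 0.23.

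The collagen col-51 had 2906, 3076 and 2908 normalized counts in wrn-1(gk99) vitC and 23664, 24228 and 25226 in N2, and fell by 3.04 ± 0.06 on the log2 scale (adjusted p = 4.53e-11). For col-183 the libraries held 3095, 3441 and 3073 in wrn-1(gk99) vitC and 23399.7, 23908 and 25748 in N2 (log2 fold change -2.93). The untreated mutant was nearly as low, with 4246, 4247 and 4155 for col-51 and 3627, 3621 and 3644 for col-183. Both of the collagens described next fell less. The gene col-2 had 83233, 86561 and 84489 normalized counts in wrn-1(gk99) vitC and 221338, 222802 and 247987 in N2 (log2 fold change -1.44), and col-84 had 117818, 126359 and 128721 in wrn-1(gk99) vitC and 242542, 249254 and 278570.0 in N2 (log2 fold change -1.05). In the untreated mutant both were lower than in the treated one, with 44733, 44167 and 45157 for col-2 and 49807, 50010.4 and 55148 for col-84.

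The 5 collagens called higher were col-42, col-103, col-98, col-142 and col-182. The libraries held 7023, 7006 and 6875 normalized counts of col-42 in wrn-1(gk99) vitC and 2931, 3118 and 3152 in N2 (log2 fold change 1.18 ± 0.06, adjusted p = 2.25e-08), with 10422, 10388 and 10386 in the untreated mutant. The gene col-103 had 5833, 5294 and 5100.5 in wrn-1(gk99) vitC against 2516, 2494 and 2459 in N2 (log2 fold change 1.12). Well known body shape collagens did not reach a ratio of 2. The dumpy collagen gene dpy-13 had 14682, 14233 and 13589.7 in wrn-1(gk99) vitC and 7982, 8869 and 8744 in N2 (log2 fold change 0.73, adjusted p = 3.25e-06), and sqt-3 had 49212, 41681 and 43228 in wrn-1(gk99) vitC and 63719, 65079 and 67316 in N2 (log2 fold change -0.55, adjusted p = 2.41e-04).

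Cuticlins, insoluble proteins that form ridges and inner layers of the cuticle, had 7 of 32 called lower and none called higher, and 14 were lower and 4 higher at an adjusted p under 0.01 and any size. With equal totals 1 was called higher. The most abundant in reads was cut-1, with 94439, 81451 and 88527 normalized counts in wrn-1(gk99) vitC and 220217, 226882 and 232156 in N2 (log2 fold change -1.36, adjusted p = 7.92e-07). The largest fall was that of cutl-4, at 68.5, 49.8 and 73.8 in wrn-1(gk99) vitC and 299.6, 337 and 340.1 in N2 (log2 fold change -2.34). Astacins are zinc metalloproteases, several of which process cuticle collagens or open the old cuticle at the moult. Of 30 tested, 5 were called lower (nas-27, nas-23, nas-7, nas-30 and nas-28) and 1 higher, and with equal totals 2 were called lower. The lowest ratio was that of nas-27, with 123, 123 and 123 normalized counts in wrn-1(gk99) vitC and 451, 496 and 516 in N2 (log2 fold change -1.98). The exception, nas-3, had 173, 149.5 and 219.6 in wrn-1(gk99) vitC and 43.0, 55.7 and 47.97 in N2 (log2 fold change 1.86, adjusted p = 2.80e-06).

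**Figure D3:**
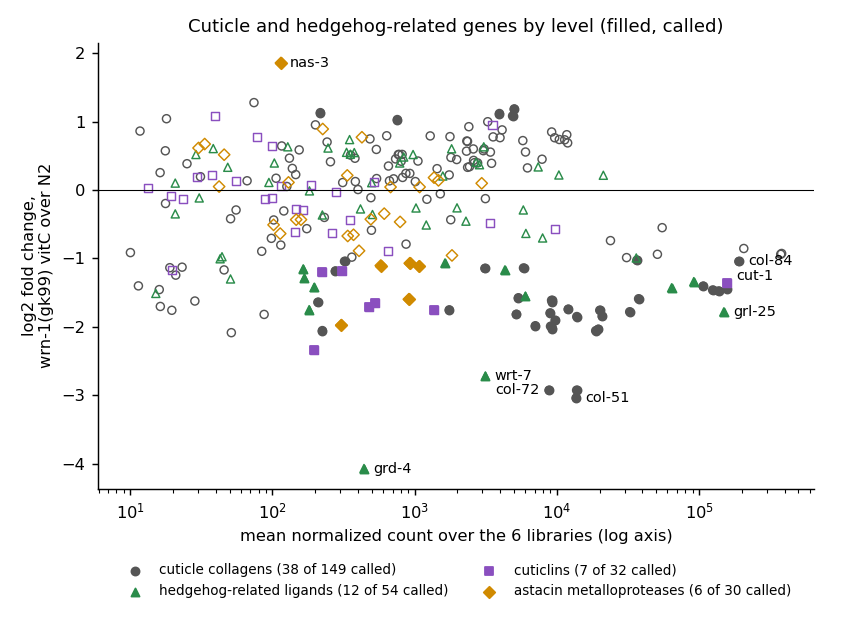
The log2 fold change of wrn-1(gk99) vitC over N2 (vertical) against the mean normalized count over the 6 libraries (horizontal, log axis) for 149 cuticle collagens, 54 hedgehog-related ligands, 32 cuticlins and 30 astacins. Filled symbols are called genes. Of the 38 called collagens 33 are below zero, and the 12 called hedgehog-related ligands are all below zero.

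Of 12 genes for enzymes that modify or cross-link collagen and for proteins that work with them, 2 were called lower and none higher. That is 16.7% called, against 4.20% of all genes. The 2 called were of the second kind, doxa-1 and tsp-15, which work with the dual oxidase that cross-links the cuticle through tyrosines. The gene doxa-1 had 1173, 1074 and 1124 normalized counts in wrn-1(gk99) vitC and 2819.7, 2813 and 2779 in N2 (log2 fold change -1.32, adjusted p = 1.29e-08). For tsp-15 the log2 fold change was -1.18, and it was not called with libraries scaled to equal totals. With no minimum group mean 1 of the 12 genes was called higher, and the highest log2 fold change among them was 1.89. The prolyl 4-hydroxylase subunit genes dpy-18 and phy-2, whose products use ascorbate in their reaction, did not reach a ratio of 2. The gene dpy-18 had 8686, 8087 and 8195 normalized counts in wrn-1(gk99) vitC and 6249, 6361 and 6118 in N2 (log2 fold change 0.41, adjusted p = 9.22e-05). It stood at 13841, 13961 and 8275 in N2 vitC replicates 1, 2 and 3. The gene phy-2 had 2567, 2588 and 2624 in wrn-1(gk99) vitC and 2708, 2759.6 and 2672 in N2 (log2 fold change -0.07, adjusted p = 0.3).

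Of 31 moulting genes, mltn-1 was called higher and lrp-1 lower, which is 6.45% called, against 4.20% of all genes. The receptor gene lrp-1, needed for shedding of the old cuticle, had uneven replicates, at 18048, 9279 and 9218 normalized counts in wrn-1(gk99) vitC and 31284, 30991 and 20300.5 in N2 (log2 fold change -1.22 ± 0.24, adjusted p = 9.83e-04). The groups did not overlap, but replicate 1 of the treated mutant and replicate 3 of N2 came close to each other, and the call was lost when no trend of variance with expression was fitted. Of 14 genes for the attachment of epidermis to muscle, mup-4 was called lower. This gene encodes a transmembrane protein of those attachments. It had 5235, 3914 and 4331 normalized counts in wrn-1(gk99) vitC and 13721, 13591 and 12499 in N2, and fell by 1.57 ± 0.09 on the log2 scale (adjusted p = 1.59e-07). The untreated mutant had 10401, 10304 and 9138.

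Hedgehog-related ligands in worms are secreted warthog (wrt), groundhog (grd) and ground-like (grl) proteins, many of them made by the epidermis and part of the moulting programme. Of 54 tested, 12 were called lower in wrn-1(gk99) vitC and none higher, and the median log2 fold change was -0.26. At an adjusted p under 0.01 and any size, 24 were lower and 14 higher. Beside grd-4, the deepest fall was in wrt-7, with 821, 842 and 821 normalized counts in wrn-1(gk99) vitC and 5384, 5444 and 5556 in N2 (log2 fold change -2.72 ± 0.05, adjusted p = 4.53e-11). It was lower still without vitamin C, at 447, 459.9 and 465. Reads were most numerous for grl-25, at 71652, 66122 and 63977 in wrn-1(gk99) vitC and 227621, 235666 and 230235 in N2 (log2 fold change -1.78). The others called lower were wrt-8, grd-7, grd-9, grd-12, grd-15, grl-1, grl-20, grl-22 and grl-23. The patched-related receptors, membrane proteins with a sterol-sensing domain, are the counterpart of the ligands. Of 27 tested, ptr-20, ptr-25 and ptr-16 were called lower and none higher, and 14 were lower and 2 higher at any size. The gene ptr-20 had 664, 605 and 624 normalized counts in wrn-1(gk99) vitC and 1452, 1517 and 1463 in N2 (log2 fold change -1.23).

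Fat and carbon metabolism gave a smaller and more mixed picture. Of 41 genes of fatty acid beta-oxidation, 4 were called higher and 2 lower, with a median log2 fold change of 0.06. The enoyl-CoA hydratase gene ech-9 had 526, 573 and 493 normalized counts in wrn-1(gk99) vitC and 164, 175 and 127 in N2 (log2 fold change 1.78, adjusted p = 3.39e-07). The peroxisomal acyl-CoA oxidase gene acox-1.2 had 1049, 1018 and 967 in wrn-1(gk99) vitC and 318, 369 and 369 in N2 (log2 fold change 1.52), against 2585, 2575 and 2494 in the untreated mutant. Another acyl-CoA oxidase gene, acox-1.5, rose by 1.45 and the hydroxyacyl-CoA dehydrogenase gene hacd-1 by 1.22. The acyl-CoA dehydrogenases acdh-1 and acdh-6 were called lower. The gene acdh-1 responds to propionate and vitamin B12 in worms. It had 24529, 25536 and 25379 normalized counts in wrn-1(gk99) vitC and 51978, 51065 and 53927 in N2 (log2 fold change -1.06), and its call was lost with equal totals.

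Of 24 genes of propionate breakdown and the methionine cycle, cbs-1 was called higher, and acdh-1 and metr-1 lower. Methionine synthase, metr-1, had 13744, 11892 and 12485 normalized counts in wrn-1(gk99) vitC and 26103, 26304 and 25516 in N2 (log2 fold change -1.03), and this call also went with equal totals and without wrn-1(gk99) vitC replicate 2. Cystathionine beta-synthase, cbs-1, had 484, 493 and 487 in wrn-1(gk99) vitC and 211, 209.5 and 197 in N2 (log2 fold change 1.24, adjusted p = 1.65e-07). Among lipases and lipid-binding proteins, 4 of 32 were called lower (lipl-8, lips-15, lipl-2 and lips-7) and none higher. The lysosomal lipase gene lipl-8 had 89.3, 66.5 and 100.04 normalized counts in wrn-1(gk99) vitC and 418, 346 and 382 in N2 (log2 fold change -2.17, adjusted p = 3.33e-07). Of 20 acyl-CoA synthetases none was called in either direction by limma on the deposited scale, and 2 were called higher with equal totals. At an adjusted p under 0.01 and any size 6 were higher and 5 lower, and 13 differed at an unadjusted p under 0.05. The fasting-responsive acs-2 had 1118, 1024.5 and 1012 in wrn-1(gk99) vitC and 619, 553 and 611 in N2 (log2 fold change 0.82, adjusted p = 2.52e-06), against 1986, 1938 and 1956 in the untreated mutant.

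The study drew up lists of genes by function from these same libraries, so their direction here is not independent evidence. Its metabolic lists held genes that were higher in untreated wrn-1(gk99) than in the same N2 libraries. Of 35 lipid genes, 12 were called higher in wrn-1(gk99) vitC and none lower, with a median log2 fold change of 0.80. The medians were 0.88 for 28 organic acid genes (11 called higher), 0.83 for 31 oxidation-reduction genes (11 called higher) and 0.77 for 26 carbohydrate genes (7 called higher). Its lists for locomotion and anatomical structure development held genes that were lower in these same wrn-1(gk99) vitC libraries than in untreated wrn-1(gk99). Of 26 genes for anatomical structure development none was called by limma on the deposited scale, and the median was 0.56. By limma with equal totals 3 were called higher, and with equal upper quartiles 1 was. With TMM scaling edgeR also called 1 higher. Of 24 locomotion genes, mup-4 alone was called, lower, and the median was 0.43. Its proteolysis list held genes that were lower in N2 vitC than in the same N2 libraries used here, so a fall against them was partly fixed by the choice. N2 vitC replicate 3, which was close to the treated mutant, was also among the libraries behind that choice. All 14 genes of the proteolysis list were called lower, with a median of -1.48. Members of that list include the hedgehog-related genes wrt-7 and wrt-8 and the Skp1-related gene skr-5, as well as astacins and the secreted metalloprotease gene adt-3 (log2 fold change -1.49).

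Xenobiotic and redox genes changed both ways. Cytochromes P450 oxidise fatty acids, steroids and foreign compounds, and of 65 tested, 7 were called lower and 2 higher. The gene cyp-34A9 had 252, 267 and 285 normalized counts in wrn-1(gk99) vitC and 960.5, 995 and 1006 in N2 (log2 fold change -1.88, adjusted p = 5.48e-09). The gene cyp-33E2 had 534, 529 and 571 in wrn-1(gk99) vitC and 1811, 1684 and 1630.0 in N2 (log2 fold change -1.65). Both stood at like levels in the untreated mutant, with 293, 264 and 310.2 for cyp-34A9 and 525, 554 and 565 for cyp-33E2. Among those that rose, daf-9, the P450 that makes the steroid hormone dafachronic acid, had 359.5, 321 and 348 in wrn-1(gk99) vitC and 165, 166 and 173 in N2 (log2 fold change 1.02, adjusted p = 1.92e-06). Its call was lost without wrn-1(gk99) vitC replicate 1, where the ratio fell under 2. It was the one called of 9 dafachronic acid genes.

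Of 62 UDP-glucuronosyltransferases, which attach sugars to lipophilic compounds, 4 were called higher and 2 lower. The gene ugt-18 had 334, 341 and 379 normalized counts in wrn-1(gk99) vitC and 126, 113 and 93.8 in N2 (log2 fold change 1.66, adjusted p = 5.27e-07). It differed from the genes above in that the untreated mutant, at 118, 101 and 105, lay with N2, and the N2 vitC libraries, at 332, 296 and 372, lay with the treated mutant. The opposite direction was taken by ugt-33, at 77.4, 60.9 and 78.0 in wrn-1(gk99) vitC and 274, 265 and 269 in N2 (log2 fold change -1.90). Of 39 glutathione S-transferases, gst-24 was called higher and gst-3 lower, which is 5.13% called, near the 4.20% of all genes. The libraries held 475, 595 and 549 normalized counts of gst-24 in wrn-1(gk99) vitC, 748, 723 and 855 in the untreated mutant, 714, 748 and 544 in N2 vitC and 223, 208 and 284 in N2. The N2 libraries were the lowest of the 12.

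Of 24 antioxidant enzymes tested, gpx-5 and trx-3 were called lower and none higher, which is 8.33% called, against 4.20% of all genes. With equal totals the call of trx-3 was lost. The glutathione peroxidase gene gpx-5 had 1259, 1433 and 1386 normalized counts in wrn-1(gk99) vitC and 3383, 3396 and 4014 in N2 (log2 fold change -1.40, adjusted p = 9.51e-08). Another glutathione peroxidase gene, gpx-3, was higher, at 98.3, 78.9 and 87.3 in wrn-1(gk99) vitC and 21.5, 27.8 and 21.3 in N2, but stayed under the minimum group mean. Of the 3 cytochrome b561 genes, whose proteins take electrons from ascorbate across membranes, F39G3.4 was called lower. It had 213, 246 and 251 normalized counts in wrn-1(gk99) vitC and 705, 651 and 703 in N2 (log2 fold change -1.53, adjusted p = 7.96e-08), beside 169.9, 194 and 204 in the untreated mutant. The gene F39G3.5 was lower by 0.62 on the log2 scale (adjusted p = 5.95e-06), under the threshold of size, and the groups of F55H2.5 overlapped (log2 difference -0.10). One gene outside the lists was chosen after its values were seen, svct-1, named for sodium-dependent vitamin C transporters. It had 69.97, 73.4 and 77.2 normalized counts in wrn-1(gk99) vitC, against 69.4, 63.2 and 53.7 in the untreated mutant and 305, 271 and 248 in N2 (log2 fold change -1.88, adjusted p = 1.41e-07). Of 13 genes of the HIF-1 pathway and related prolyl hydroxylases, rhy-1 was called higher (log2 fold change 1.29) and the ferritin gene ftn-1 lower (log2 fold change -1.84).

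Defence genes had members far apart from each other. Lysozymes gave 1 called lower, lys-8, and 1 called higher of 11 tested. The second, lys-2, had 9026, 9931 and 9604 normalized counts in wrn-1(gk99) vitC and 4582, 4673 and 4844 in N2 (log2 fold change 1.02, adjusted p = 1.31e-07), and it lost its call without wrn-1(gk99) vitC replicate 2. C-type lectins, secreted sugar-binding proteins of which many respond to pathogens, gave 10 called higher and 6 called lower of 113, with a median log2 fold change of 0.14. Besides clec-4 and clec-75, clec-66 had 1128, 1191 and 1188 in wrn-1(gk99) vitC and 426, 444 and 437 in N2 (log2 fold change 1.42). The lectin clec-228 went the other way, with 375, 424 and 354 in wrn-1(gk99) vitC and 1471, 1571 and 1611 in N2 (log2 fold change -2.01).

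Of 43 saposin-like and other defence genes, 3 were called higher and 3 lower. The gene dod-21, which responds to insulin signalling through DAF-16, had 1265, 1274 and 1398 normalized counts in wrn-1(gk99) vitC and 389.6, 402 and 376 in N2 (log2 fold change 1.75, adjusted p = 5.66e-09). The saposin-like gene spp-20 had 1460.5, 1749 and 1686 in wrn-1(gk99) vitC and 4152, 3981 and 4276 in N2 (log2 fold change -1.35), and all other libraries of the series were near the treated mutant, at 1450.3, 1458 and 1569 in the untreated mutant and 1576, 1608 and 1695 in N2 vitC. Epidermal antimicrobial peptides gave 3 called lower and 1 called higher of 35. The caenacin gene cnc-9 had 1763, 2190.3 and 2091 normalized counts in wrn-1(gk99) vitC, against 943, 922 and 1023 in the untreated mutant and 4747, 5026 and 5661 in N2 (log2 fold change -1.35). The cathepsin B-like proteases cpr-1 and cpr-5 were called higher and no lysosomal protease lower, of 25. The gene cpr-1 had 5039, 5200.3 and 5195 in wrn-1(gk99) vitC and 1341, 1465 and 1645 in N2 (log2 fold change 1.80, adjusted p = 8.51e-09).

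Part of the peptide signals of neurons fell in the treated mutant. Of 130 neuropeptide and insulin-like genes, 12 were called lower and none higher, and the median log2 fold change was -0.49, beside 0.00 over all genes tested. At any size, 72 were lower and 7 higher at an adjusted p under 0.01. The deepest called falls were in nlp-69 (log2 fold change -1.52) and nlp-59. The gene nlp-59 had 108, 125 and 123 normalized counts in wrn-1(gk99) vitC and 316, 305 and 351 in N2 (log2 fold change -1.44, adjusted p = 4.65e-07), and flp-20, a peptide gene of the touch neurons, had 161, 179 and 186 in wrn-1(gk99) vitC and 404, 423 and 431 in N2 (log2 fold change -1.26). Both were as low in the untreated mutant, with 105, 108 and 104 for nlp-59 and 166, 153 and 151 for flp-20. Of 16 tubulins, mec-7, the beta-tubulin of touch neuron microtubules, was the one called, lower. It had 1313, 1238 and 1257 normalized counts in wrn-1(gk99) vitC and 3037, 3039 and 3059 in N2 (log2 fold change -1.26, adjusted p = 1.27e-08).

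Neuron markers were also lower. Of 12 genes expressed across neurons, 9 were lower and none higher at an adjusted p under 0.01, none was called, and the median log2 fold change was -0.53. Their summed level was 17082 to 18798 normalized counts in wrn-1(gk99) vitC and 23936 to 24305 in N2. The largest change was in unc-31, which is needed for release of dense core vesicles, at 549, 379 and 479 in wrn-1(gk99) vitC and 775, 794 and 803 in N2 (log2 fold change -0.77, adjusted p = 1.34e-04). In bulk RNA from whole worms, fewer cells of a type, less RNA per cell and a larger share of RNA from other tissues cannot be told apart. With libraries scaled to equal totals, 5 neuropeptide genes were called lower and 1 higher.

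Some germline and oocyte genes were higher in the treated mutant. Of 30 tested, 5 were called higher and none lower, and 23 were higher at an adjusted p under 0.01, with a median log2 fold change of 0.54. All 5 were on the list of oocyte markers, namely the translational regulators oma-1, oma-2 and puf-5, the eggshell gene cbd-1 and the oocyte surface gene egg-1. The gene puf-5 had 227, 208 and 189.9 normalized counts in wrn-1(gk99) vitC and 88.7, 76.9 and 95.9 in N2 (log2 fold change 1.25, adjusted p = 6.53e-06), and cbd-1 had 977, 738 and 738 in wrn-1(gk99) vitC and 441, 367 and 351 in N2 (log2 fold change 1.07, adjusted p = 1.72e-05). These rises were close to a ratio of 2, and oma-2 and egg-1 lost the call without N2 replicate 2 and cbd-1 without wrn-1(gk99) vitC replicate 1. In a fit of all 12 libraries 2 of the 5 were called. The summed level of the oocyte markers was 5934 to 7002 normalized counts in wrn-1(gk99) vitC and 4189 to 4327 in N2. The untreated mutant lay near the treated one, at 6333 to 6564. Markers of mitotic and meiotic germ cells summed to 21700 to 24281 in wrn-1(gk99) vitC and 16908 to 17319 in N2.

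**Figure D4:**
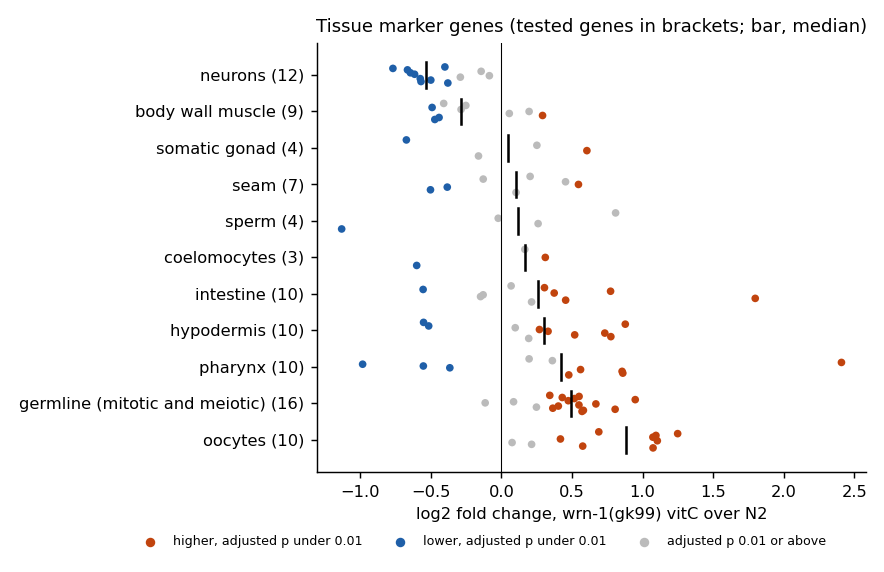
The log2 fold change of wrn-1(gk99) vitC over N2 for each tested marker gene of 11 tissues, with 1 tissue per row and the median as a bar. Orange-red points were higher and blue points lower at an adjusted p under 0.01, and grey points did not pass. Neuron markers lie to the left of zero, with a median of -0.53, and oocyte markers to the right, with a median of 0.88.

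Other tissue markers had medians of 0.30 for epidermis (hypodermis), 0.26 for intestine, 0.42 for pharynx and -0.29 for body wall muscle. The sum of the hypodermis markers went the other way from their median. It was 74594 to 82427 normalized counts in wrn-1(gk99) vitC and 86464 to 91483 in N2. Of the muscle markers, hlh-1 was listed at 0 in every library. Their summed levels ran from 213797 to 294653 normalized counts in wrn-1(gk99) vitC and from 294264 to 311727 in N2, so the groups overlapped. The summed intestinal markers ran from 55335 to 59942 in wrn-1(gk99) vitC and from 41730.0 to 42888 in N2. Sperm markers had few reads, as 14 of 18 were under the mean of 10 and the list summed to 195.2 to 233.1 in wrn-1(gk99) vitC and 194.8 to 261.2 in N2. How far these shifts in tissue markers bear on the family counts above was not tested.

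Several large groups held none of the called genes by limma on the deposited scale. They were 83 cytosolic ribosomal protein genes (29 higher and 0 lower at an adjusted p under 0.01), 52 genes of the respiratory chain and ATP synthase (10 higher, 0 lower), 43 genes of central carbon metabolism (14 higher, 1 lower) and 31 proteasome subunits (1 higher, 2 lower). Of the central carbon genes 1 was called higher by edgeR with TMM scaling, by DESeq2, and by limma with equal totals or equal upper quartiles. None of 45 genes of DNA replication and repair, including the RecQ helicases, was called by limma on the deposited scale either. At an adjusted p under 0.01, 30 of the 45 were higher and 0 lower, and the median log2 fold change of the list was 0.35. At an unadjusted p under 0.05 the numbers that differed were 58 ribosomal protein, 27 respiratory chain, 25 central carbon, 8 proteasome and 39 replication and repair genes. The 213 nuclear hormone receptor genes gave 1 called higher, nhr-112, and the 251 F-box, Skp1-related and MATH genes gave 2 higher and 5 lower, both shares under or near those of all genes. The deepest fall in that last group was fbxa-75, with 125, 139.8 and 115 normalized counts in wrn-1(gk99) vitC and 664, 626 and 619 in N2 (log2 fold change -2.32). Transthyretin-related genes, secreted proteins of which some act in neuron and germline signalling, gave 3 higher and 3 lower of 47. The gene ttr-44 had 2398, 2680.4 and 2490.0 in wrn-1(gk99) vitC and 7997, 8183 and 8528 in N2 (log2 fold change -1.71).

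**Figure D5:**
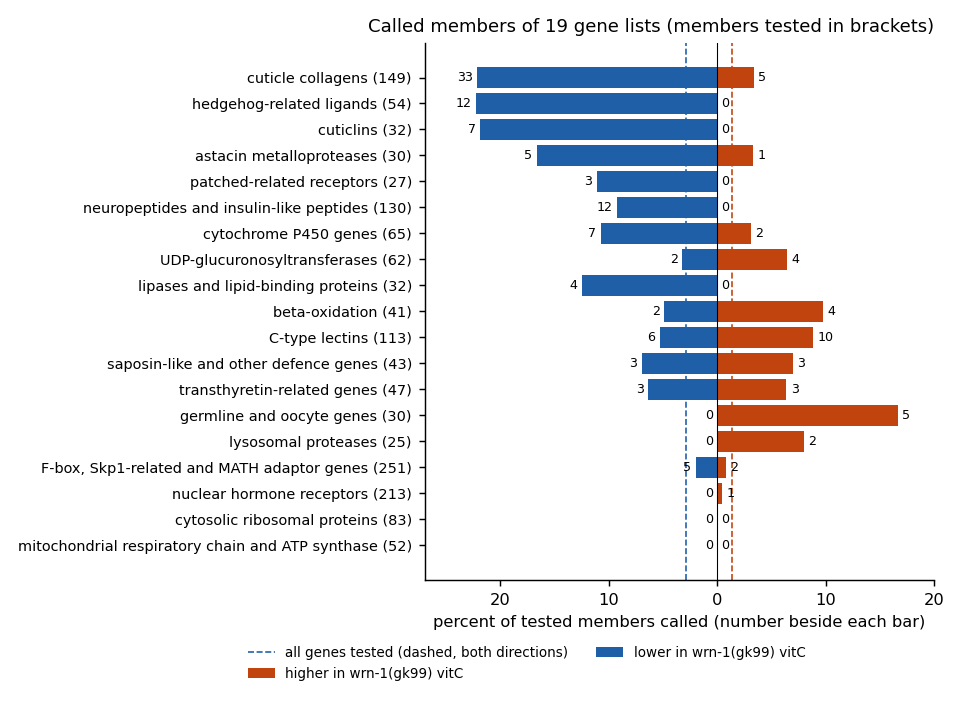
Share of tested members called lower (blue, to the left) and higher (orange-red, to the right) in wrn-1(gk99) vitC relative to N2 for 19 gene lists, with the number called beside each bar and the number tested in brackets. Dashed lines mark the shares over all 14304 genes, 2.87% lower and 1.34% higher. Collagens, hedgehog-related ligands and cuticlins have the longest bars to the left, and germline and oocyte genes the longest to the right.

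The 17 genes that the study chose for RT-PCR gave 5 called higher, 5 called lower and 7 not called. Called higher were sodh-1, nas-3, daf-9, ech-9 and the ceramidase gene asah-1, and called lower were lys-8, cyp-33E2, cyp-34A9, ugt-33 and pes-8. Beside tba-1 and acs-2, those not called were acs-14 (log2 fold change 0.85), Y46G5A.20 (-0.99), gpx-3, arrd-24 and nlp-32. The acyl-CoA synthetase gene acs-14 had 1329, 1403 and 1389.6 normalized counts in wrn-1(gk99) vitC and 780.5, 794 and 714 in N2. The antimicrobial peptide gene nlp-32 had 20.8 to 47.6 in wrn-1(gk99) vitC and 132, 144.5 and 128 in N2, under the minimum group mean, and was at 2.82, 7.29 and 3.98 in the untreated mutant.

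By position, chromosome V held the largest share of called genes, with 1.99% of 3011 tested genes higher and 3.92% lower, and chromosome I the smallest, with 0.582% of 2235 higher and 1.74% lower. On chromosome II, which carries wrn-1, 1.37% of 2344 genes were called higher and 3.24% lower. Nearly all called genes, 185 higher and 404 lower, were annotated as protein coding, of 13703 tested. Among the exceptions were the ribosomal RNA gene rrn-3.1, with 175205, 65700.2 and 125315 normalized counts in wrn-1(gk99) vitC and 31182, 32367 and 33419.7 in N2 (log2 fold change 1.81 ± 0.26, adjusted p = 1.29e-04), and its near copy rrn-3.56, annotated as a pseudogene, whose reads cannot be assigned with certainty. The spread of rrn-3.1 within the treated mutant was wide, and in N2 vitC it was 16327, 119496 and 81669.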

How the data were processed

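RNA from whole L4 worms was sequenced as 12 paired-end libraries, of which 6 entered the comparison. According to the study's methods and the submitters' processing notes, reads were aligned with TopHat to ce10 and counted per gene with HTSeq. The authors divided the counts by DESeq size factors, so the deposited values are a signal, a normalized read count per gene that is not scaled to gene length. The software versions, the counting mode and the strand setting are not given in the sources used here, so overlapping and antisense genes cannot be told apart. In all 12 libraries each value was a whole number of steps, the step being that library's lowest value above zero (tolerance 0.01), and in the 6 libraries compared these gave whole reads, used for library depth and for count tests. Columns left unmatched to a sample numbered 0, and every table column was one library.

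The main test was limma 3.58.1 (lmFit, eBayes with a trend) in R 4.3.3 on log2(normalized count + 1), fitted to the 2 groups alone, with Benjamini-Hochberg adjustment over all genes tested. Fold changes are on that scale, which understates the change of low genes. SE is limma's moderated standard error. Calls followed the thresholds of the study (adjusted p under 0.01, a ratio of 2, a minimum group mean). Alternatives were other pseudocounts, filters, scalings and sample sets, a replicate block, edgeR 4.0.16 (quasi-likelihood) and DESeq2 1.42.0. In simulated counts for these groups (14227 genes), limma recovered 200 of 200 genes changed by 3-fold or 4-fold. Every changed gene was set past the ratio of 2 and the minimum group mean beforehand, with the same spread for all genes. The simulation therefore does not bear on calls near those thresholds. The labels do not say whether replicates came from separate cultures, so p-values measure the spread between these samples.

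The genes, gene lists and tests were chosen with earlier results of these data known. The rule for naming genes took wrn-1, the 10 largest and the 10 smallest ratios among called genes whose groups did not overlap, up to 2 called genes in each direction per list by fold change, members of lists of 12 genes or fewer, and the RT-PCR genes. Of the genes given with values outside that rule, acox-1.5, adt-3, clec-66, col-103, col-183, col-2, col-84, cut-1, dpy-18, flp-20, gdh-1, grl-25, hacd-1, mec-17, mec-4, pals-26, phy-2, rrn-3.1, upb-1 and upp-1 were chosen after their values were seen. Chromosomes and gene types came from an annotation of another build, WBcel235, and no coordinates were taken from it. Deviations from the group mean had correlations of 0.092, 0.0 and 0.106 between samples with the same replicate number. Between samples with different numbers they ran from -0.119 to 0.03. The main fit did not treat the numbers as pairs.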

Additional observations from a re-analysis of the deposited data

How the results depend on the processing

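The 601 calls (191 higher, 410 lower in wrn-1(gk99) vitC) were the same genes with a pseudocount of 0.1 or 10, with all genes with a read or a mean of at least 50, at an adjusted p under 0.05, and with edgeR on the deposited size factors. The ratio and the level decided the calls, and those settings leave both unchanged, so they could not have moved the counts by much. With the tools' own scaling, edgeR with TMM gave 201 higher and 402 lower (8 of the 601 lost) and DESeq2 gave 195 and 407 (3 lost). Equal upper quartiles gave 210 and 397 (13 lost). Equal totals gave 339 higher and 266 lower (31.8% were higher on the deposited scale), with 144 of the 601 lost. With no minimum group mean the calls were 1080, 377 higher and 703 lower. Leaving out each replicate gave 604 to 636 calls, 194 to 204 higher and 409 to 432 lower. A fit without a variance trend gave 599, and a fit of all 12 libraries 532 (69 lost). The same fit without N2 vitC replicate 3, chosen after seeing the data, gave 599. No call reversed in any of these settings. The replicate block left the calls at 601, but it changes neither the ratio nor the level, which decided them. Genes at an adjusted p under 0.01 and any size went from 6248 to 6489 with the block. Correlations of deviations were 0.092, 0.0 and 0.106 for equal replicate numbers and -0.119 to 0.03 for different ones.

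Of 211 named genes 109 were called, and 82 of them kept the call under every alternative listed in advance. Equal totals ended the calls of acdh-1, metr-1, elo-9, trx-3, tsp-15, dhs-7, nphp-2 and twk-39, and left 27 collagens, 9 hedgehog-related ligands, 2 astacins and 5 neuropeptide genes called lower. The fit of all 12 libraries ended those of acox-1.2, asah-1, col-182, daf-9, dod-24, egg-1, fbxa-192, hsp-12.2, lrp-1, lys-2, mltn-1, oma-1, pqn-94, puf-5 and ugt-65. The call of nhr-112 was lost without wrn-1(gk99) vitC replicate 2 and without N2 replicate 3. Genes given with values outside the naming rule, among them col-84, mec-4 and mec-17, were not followed singly under these settings. Their absence here does not mean that they kept their calls. With 3 libraries a group, an exact permutation test of 1 gene cannot go below p = 0.1, so calls rest on the spread shared across genes. Whether stage within L4 or tissue proportions contributed to these differences was not tested.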

Other observations

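Some families were picked only after their values had been seen, so they are given as descriptions. The pals genes, many of which respond to infection of the intestine by microsporidia or virus, had 10 of 31 tested members called lower in wrn-1(gk99) vitC and none higher, with a median log2 fold change of -0.98. The gene pals-26 had 1151, 1224 and 1282 normalized counts in wrn-1(gk99) vitC and 3761, 3725 and 3855 in N2 (log2 fold change -1.63). The untreated mutant was lower still, at 679, 659.9 and 684, and the family median there was -1.77. Of 16 mec genes, most of them needed for touch sensing, mec-7, mec-10, mec-1, mec-4 and mec-17 were called lower and none higher (median -0.78). The channel subunit gene mec-4 had 89.3, 88.6 and 78.0 normalized counts in wrn-1(gk99) vitC and 197, 163 and 193 in N2, and the tubulin acetyltransferase gene mec-17 had 1032, 1105 and 1092 in wrn-1(gk99) vitC and 2015, 2219 and 2336 in N2. Of 47 genes named for cilium function, dyf-13, dyf-14, nphp-2 and mks-5 were called lower and none higher (median -0.41). With libraries scaled to equal totals, 6 pals genes, 3 mec genes and 1 cilium gene were called lower.

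Enzymes that break down amino acids and pyrimidines were also grouped after their values were seen, and 7 of 18 were called higher and 1, dpyd-1, lower. The lysine-degrading enzyme gene aass-1 had 2791, 2519.8 and 2715 normalized counts in wrn-1(gk99) vitC and 822, 838 and 846 in N2 (log2 fold change 1.68). Glutamate dehydrogenase, gdh-1, had 26254, 22602 and 22709 in wrn-1(gk99) vitC and 10681, 10936 and 10402 in N2 (log2 fold change 1.16). The genes upp-1 and upb-1 act in the same uracil breakdown as dpyd-1, and they went the other way from it. Uridine phosphorylase, upp-1, had 846, 1029 and 868 in wrn-1(gk99) vitC and 326, 347 and 360.3 in N2, and beta-ureidopropionase, upb-1, had 1921, 1965 and 1975 in wrn-1(gk99) vitC and 748, 764 and 839 in N2. In the untreated mutant, dpyd-1 was at 344, 367 and 392, upp-1 at 1515, 1371 and 1473 and upb-1 at 3187, 3148 and 3213.

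The nspc genes, small secreted proteins in closely related copies whose reads cannot be assigned with certainty, had 9 of 10 members higher at an adjusted p under 0.01, of which nspc-14 and nspc-4 passed the minimum level and were called. Of 42 twk potassium channel genes, twk-9 and twk-39 were called lower and none higher. That is 4.76% called, near the 4.20% of all genes, and twk-39 lost its call with equal totals.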
